A study of Mus musculus with 4 samples.

Results

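Glycosyltransferases that add sialic acid, fucose, galactose and branching N-acetylglucosamine were described across 4 whole-transcript arrays of mouse monocytes treated with all-trans retinoic acid or with its solvent. The members were all probe sets whose platform annotation held exactly 1 gene symbol and whose symbol began with St3gal, St6gal, St6galnac, St8sia, Fut, Mgat, B4galt, B3gnt or Gcnt followed by a digit. This gave 65 probe sets of 59 genes, of 41345 probe sets on the array. Another 5 probe sets carried a matching symbol together with a second one and were not used, among them 17329395, annotated to St6gal1 and BC106179. All 65 members were tested, with no filter on low values.

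The cells were Ly6C-high bone marrow monocytes, enriched with a kit and sorted by flow cytometry from the pooled marrow of 3 mice. The culture medium held 20 ng per ml of both GM-CSF and interleukin 4, a mixture that drives monocytes toward dendritic cells. One group of 2 arrays had 100 nM retinoic acid from the start of culture, the other group of 2 arrays had DMSO, and RNA was taken after 24 h, on day 1. Whether the arrays of 1 group stand for different cultures or pools is not stated in the labels. P-values here therefore reflect the spread between these particular samples, and that spread may be technical.

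Sialic acid is the acidic sugar that caps most glycan chains on the surface of immune cells. The enzymes that attach it are named for the bond they make: St3gal enzymes make α2,3 links, St6gal and St6galnac enzymes α2,6 links, and St8sia enzymes add sialic acid to another sialic acid in an α2,8 link. Fucosyltransferases, Mgat, B4galt, B3gnt and Gcnt enzymes build the fucose, the branches and the lactosamine chains beneath or beside these caps. On leukocytes the products serve as ligands for selectins, siglecs and galectins, and polysialic acid, the long α2,8-linked chain, sits on a few carrier proteins of dendritic cells and neural cells.

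Retinoic acid was followed by higher levels of 3 member probe sets and lower levels of 3 at an adjusted p under 0.05 (limma on log2 intensity, Benjamini-Hochberg over 39721 probe sets). St8sia6, St8sia4 and St6gal1 rose, and St3gal1, St3gal5 and Fut7 fell. Over all tested probe sets the same threshold called 0.904% as higher and 1.19% as lower, 2.09% together. The 6 called members were 9.23% of the 65. The members were chosen with earlier results of these data known, so the shares given here do not test the family. Of all probe sets with 1 symbol, 2.96% were called, and of those with 1 symbol whose mean lay above the dim level in at least 1 group, 5.02%, against 13.6% of the 44 members that met the same condition. The dim level used here was 6.35 on the log2 scale, the 95th percentile of the mean over 1405 olfactory and vomeronasal receptor probe sets, genes taken here to be silent in these cells. The 6 called members were also the 6 that differed by at least 2-fold, where 1.69% of probe sets with 1 symbol did. This match rests on a narrow margin, since Mgat4a differed by 1.999-fold and was not called (limma adjusted p = 0.0906). The median difference of the 65 members was 0.01 on the log2 scale, beside 0.01 for all probe sets with 1 symbol. The median size of the difference was 0.12 for the members, 0.10 for those probe sets. Of the 65 differences 36 were above 0 and 29 below, and 59 did not pass.

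**Figure D1:**
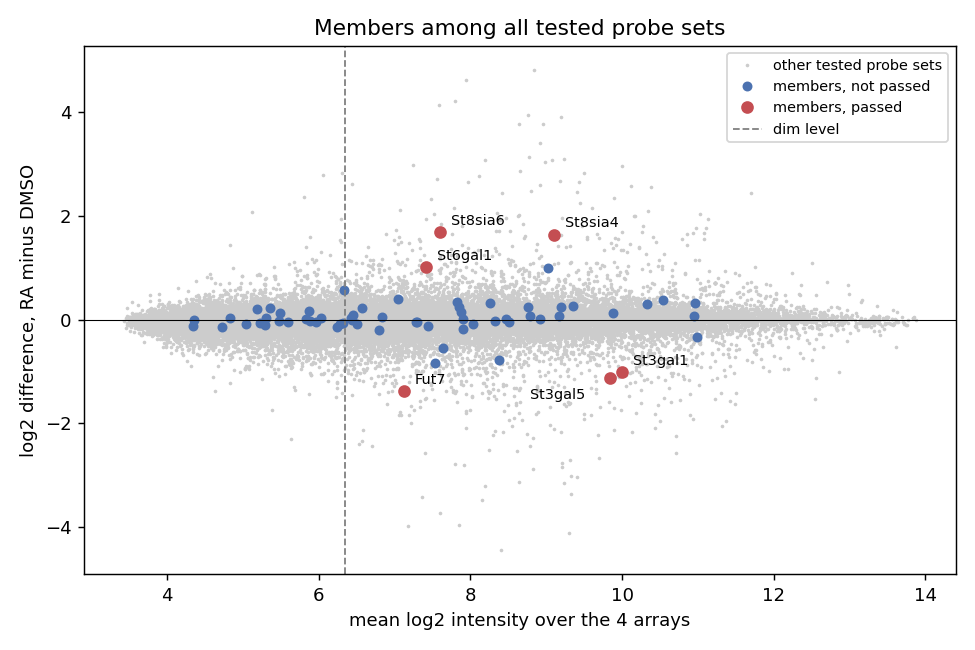
Each point is 1 tested probe set, placed by its mean log2 intensity over the 4 arrays (x axis) and its log2 difference, retinoic acid (RA) minus DMSO (y axis). Grey points are all other tested probe sets, blue points the 59 members that did not pass, and red points the 6 members that did; the dashed line is the dim level of 6.35. Most members lie near 0, with St8sia6 and St8sia4 at 1.68 and 1.64 as the highest.

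These calls have limits that hold for each of the 6. Whichever of the 4 arrays was left out, limma called 0 members, and the smallest adjusted p of a member was 0.0669 without retinoic acid replicate 1, 0.0563 without retinoic acid replicate 2, 0.0944 without DMSO replicate 1 and 0.104 without DMSO replicate 2. In these fits the size of the difference ran from 1.40 to 1.87 for St8sia4, 1.53 to 1.84 for St8sia6 and 0.99 to 1.05 for St6gal1. It ran from 1.00 to 1.02 for St3gal1, 1.06 to 1.17 for St3gal5 and 1.22 to 1.54 for Fut7. With all 4 arrays, 13.4% of all tested probe sets passed at an unadjusted limma p under 0.05, where 21 of the 65 members did. The 6 differences kept their sign in each fit. The calls also depend on the removal of 1624 probe sets whose value is the same on each array, none annotated with 1 gene. With those kept, limma called 0 members (smallest adjusted p = 0.0591; 21 at an unadjusted p under 0.05). With 2 arrays a group the smallest p of an exact permutation test is 0.333, and each p therefore depends on limma's model.

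The labelled treatment and cells were checked against short gene lists. All 6 genes of a short retinoic acid response list (Rarb, Cyp26a1, Dhrs3, Tgm2, Asb2 and Aldh1a2) rose, with differences of 1.65 to 4.14. Rarb and Cyp26a1, the lower and upper ends of that range, were under the dim level with DMSO, so their differences are against background, and the list is no independent check. Each of 10 monocyte and dendritic cell identity genes lay above the dim level, among them Ly6c2 at 11.91 with DMSO and 11.72 with retinoic acid. Zbtb46, a dendritic cell transcription factor, fell by 1.53 and the other 9 did not pass. At an unadjusted limma p under 0.05, 2 of the 10 were higher and 3 lower, Zbtb46 among them. Itgam and Fcgr1 differed by 0.66 and 0.60, and Itgax and Ccr2 by -0.42 and -0.34. Of 6 B cell and plasma cell genes, 4 were dim in both groups and 0 passed (limma; 0 at an unadjusted p under 0.05). The log2 of their summed intensity was 8.21 to 8.27 with DMSO and 8.23 to 8.35 with retinoic acid. Of 7 T and NK cell genes 5 were dim in both groups and 0 passed (1 lower at an unadjusted p under 0.05). None of 5 erythroid and megakaryocyte, 6 basophil, mast cell and eosinophil and 5 progenitor genes passed (limma; 1, 1 and 0 at an unadjusted p under 0.05, those being lower). All 8 neutrophil genes were above the dim level in a group. Of these Ly6g was next to that level, at 6.33 with DMSO and 6.42 with retinoic acid. The log2 summed intensity of the 8 was 13.80 to 13.82 with DMSO and 13.92 to 14.01 with retinoic acid, higher on both retinoic acid arrays. Their differences ran from -0.14 (Mpo) to 0.73 (Prtn3), with a median of 0.01. None of these 8 passed (1 higher at an unadjusted p under 0.05), and their part in the member results was not tested. In these bulk samples fewer cells of a type and less RNA per cell cannot be told apart.

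Upstream sequences of 5 called members are printed before their values, since retinoic acid receptors bind DNA at short repeated half-sites. The sequences come from the RefSeq promoter table, build GRCm38.p6, which held 60 windows for 42 of the 59 member genes. Each window was cut to the 250 bases before an annotated start. The search covered 4 spellings of the half-site. The first is AGGTCA. Another spelling is AGTTCA, a further one is GGGTCA, and the last spelling searched is GGTTCA. Direct repeats of any of these with 5, 2 or 1 bases between them were searched too, as was the GC box, spelled GGGCGG, and the box named CCAAT for its letters, each on both strands. Matches are in capitals, and a match on the opposite strand appears as its reverse complement. All lines run 5′ to 3′ on the gene's strand. The windows are chr1:95667595-95667844 on the minus strand for St8sia4, chr2:13793521-13793770 on the minus strand for St8sia6, chr16:23290220-23290469 on the plus strand for St6gal1 (1 of 3 annotated starts), chr6:72097358-72097607 on the plus strand for St3gal5 and chr2:25423444-25423693 on the plus strand for Fut7 (1 of 2 starts). Where a gene had several starts, the window with the most half-sites is shown.
St8sia4: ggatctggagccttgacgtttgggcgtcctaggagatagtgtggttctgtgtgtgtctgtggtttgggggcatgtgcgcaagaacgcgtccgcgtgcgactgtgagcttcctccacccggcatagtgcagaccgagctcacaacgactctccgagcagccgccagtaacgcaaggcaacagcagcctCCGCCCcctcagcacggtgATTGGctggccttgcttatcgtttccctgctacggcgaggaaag
St8sia6: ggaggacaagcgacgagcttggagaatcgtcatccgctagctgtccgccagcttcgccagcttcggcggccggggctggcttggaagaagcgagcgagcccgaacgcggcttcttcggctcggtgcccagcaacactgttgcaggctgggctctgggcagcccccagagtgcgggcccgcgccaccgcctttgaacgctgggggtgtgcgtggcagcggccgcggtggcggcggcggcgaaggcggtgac
St6gal1: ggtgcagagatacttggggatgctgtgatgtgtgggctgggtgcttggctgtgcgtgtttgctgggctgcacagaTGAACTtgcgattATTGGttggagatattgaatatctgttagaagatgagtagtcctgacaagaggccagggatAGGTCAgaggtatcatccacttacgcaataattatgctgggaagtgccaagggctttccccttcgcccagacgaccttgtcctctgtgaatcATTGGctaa
St3gal5: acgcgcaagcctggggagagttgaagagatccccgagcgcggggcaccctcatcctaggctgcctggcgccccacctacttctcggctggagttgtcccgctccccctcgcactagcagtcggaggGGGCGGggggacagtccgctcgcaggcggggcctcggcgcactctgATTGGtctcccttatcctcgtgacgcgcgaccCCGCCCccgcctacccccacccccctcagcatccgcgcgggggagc
Fut7: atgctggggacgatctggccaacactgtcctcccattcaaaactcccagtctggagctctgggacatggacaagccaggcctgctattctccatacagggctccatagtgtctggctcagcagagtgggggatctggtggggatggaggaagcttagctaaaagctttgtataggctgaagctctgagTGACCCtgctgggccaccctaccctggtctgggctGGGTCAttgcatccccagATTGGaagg

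No direct repeat with 5, 2 or 1 bases between half-sites was found in the 60 member windows, and these spacings occurred in 0.0883%, 0.174% and 0.164% of all 32851 windows of the same length. At least 1 half-site was present in 11 member windows (18.3%), against 38.6% of all windows. The St6gal1 window shown holds 2, of the first and second spelling, and the Fut7 window shown holds 2 of the third spelling. The windows not shown hold 0 and 1 for St6gal1 and 0 for Fut7. The windows of St8sia4, St8sia6 and St3gal5 hold 0. The GC box was in 55% of member windows and 32.7% of all, and the CCAAT box in 38.3% and 33.8%. St3gal5 has 25 CpG dinucleotides in its window, St8sia6 30 and St8sia4 19, where the median of all windows was 6. The Fut7 windows have 1 (the one shown) and 7 (the other start). The St6gal1 windows have 5 (the one shown), 6 and 10. These matches describe letters in 250 bases and say nothing of sites farther away or of binding.

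The α2,8 sialyltransferases held the largest rises. St8sia4 encodes a polysialyltransferase, which builds the long polysialic acid chain and is the main form in immune cells. Its probe set (17225815) had log2 intensities of 8.52 and 8.05 with DMSO and 10.10 and 9.74 with retinoic acid. Both retinoic acid arrays lay above both DMSO arrays by more than a unit, although the arrays of each group were 0.33 (DMSO) and 0.25 (retinoic acid) apart as SD. The difference was 1.64 ± 0.20 (log2, moderated SE), a 3.11-fold rise (limma adjusted p = 0.0379). The deposited intensities were 366 and 265 with DMSO and 1096 and 855 with retinoic acid.

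St8sia6 encodes an enzyme that adds single α2,8 sialic acids, mainly on O-glycans, and makes ligands for siglecs. Its probe set (17381879) read 6.71 and 6.82 with DMSO and 8.60 and 8.29 with retinoic acid. The DMSO level was close to the dim level of 6.35, so the fold is against a low baseline. The difference was 1.68 ± 0.13 (log2, SE), 3.21-fold (limma adjusted p = 0.0127), and its size exceeded that of 99.5% of probe sets with 1 symbol. The other 5 probe sets of this subfamily did not pass. St8sia1, the GD3 synthase, read 9.14 and 9.31 with DMSO and 9.57 and 9.41 with retinoic acid, which differ by 0.27 ± 0.11 (adjusted p = 0.398). St8sia2, the other polysialyltransferase, differed by -0.05 ± 0.08 at a mean of 7.30 with DMSO. St8sia3 was dim in both groups, and the probe sets of St8sia5 differed by -0.08 and -0.12.

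**Figure D2:**
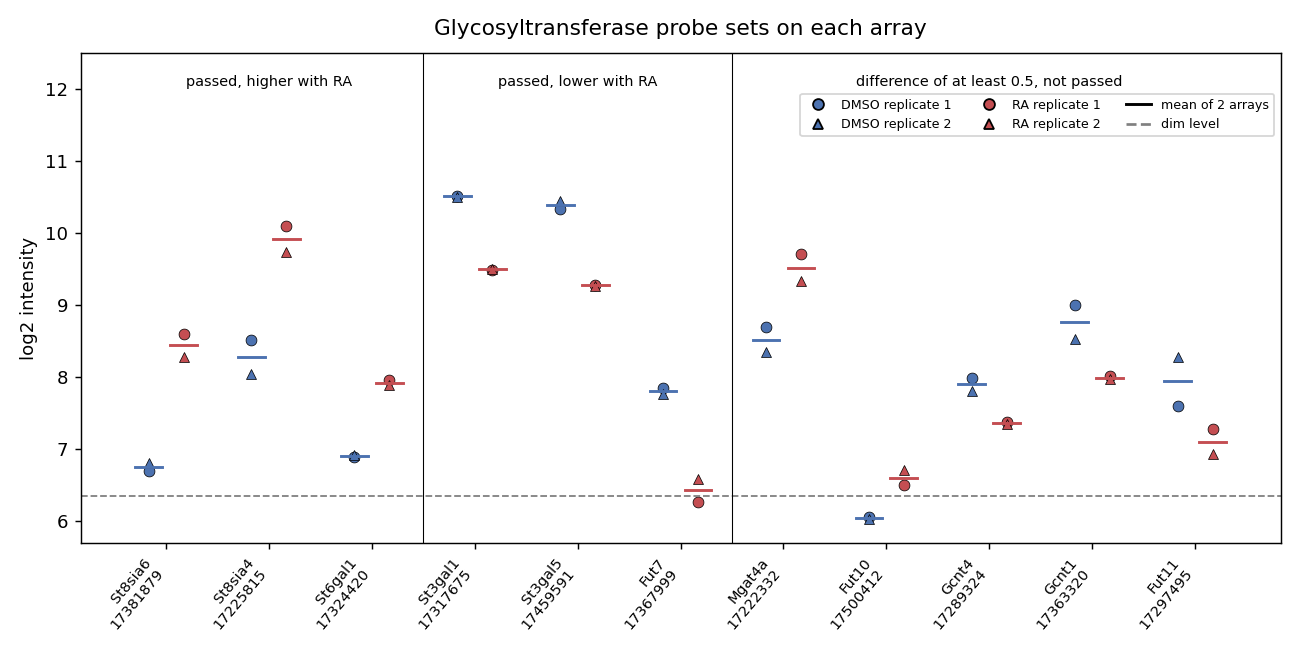
Log2 intensity (y axis) on each array of the 11 member probe sets that passed or differed by at least 0.5 (x axis, gene and probe set). Blue marks DMSO, red retinoic acid (RA), circles replicate 1 and triangles replicate 2; short lines are means of 2 arrays and the dashed line is the dim level of 6.35. In the 6 that passed, the 2 arrays of a group lie closer to each other than to the arrays of the other group, and retinoic acid replicate 1 of Fut7 lies below the dim level.

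Among the α2,6 sialyltransferases, St6gal1 rose and 7 others did not pass. St6gal1 caps the lactosamine arms of N-glycans and is the main α2,6 sialyltransferase of leukocytes and liver. Its member probe set (17324420) read 6.90 and 6.92 with DMSO and 7.96 and 7.90 with retinoic acid. The groups were thus far apart compared with the arrays within them. The difference was 1.02 ± 0.08 (log2, SE), 2.02-fold (limma adjusted p = 0.0124). The DMSO mean was 6.91, not far above the dim level of 6.35, so this fold too is against a low baseline. B cells are a lineage rich in St6gal1. Of the 6 B cell and plasma cell genes given above, 4 were dim in both groups and 2 were not. These 2 were Cd79a, at 6.18 with DMSO and 6.36 with retinoic acid, and Mzb1, at 6.59 and 6.56. The part of such cells in this rise was not tested. St6gal2 was dim in both groups. The St6galnac enzymes, which put sialic acid on O-glycan core GalNAc or on gangliosides, differed little: St6galnac4 by 0.01 ± 0.09, St6galnac6 by 0.02 ± 0.10 and St6galnac2 by 0.08 ± 0.08, while St6galnac1, St6galnac3 and St6galnac5 were dim in both groups. The largest of these 6 adjusted p was 0.969 and the smallest 0.735.

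Among the α2,3 sialyltransferases, 2 of 6 fell and 0 rose, and the groups did not overlap in any of the 6, as they did not in 47.6% of all probe sets with 1 symbol. These 6 include St3gal6, which was dim in both groups and differed by -0.07. St3gal1 caps the core 1 O-glycan and thereby stops its further branching. Its probe set (17317675) read 10.51 and 10.51 with DMSO and 9.49 and 9.51 with retinoic acid. Arrays of a group differed by no more than 0.01 as SD, and the groups by -1.01 ± 0.07 (log2, SE), 2.01-fold (limma adjusted p = 0.0116). St3gal5 makes the ganglioside GM3 from lactosylceramide, the entry step to most gangliosides. It read 10.34 and 10.44 with DMSO and 9.29 and 9.27 with retinoic acid (probe set 17459591), which was 2.17-fold lower (-1.12 ± 0.08, adjusted p = 0.0113).

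The other 4 α2,3 enzymes did not pass. St3gal2, which acts on core 1 chains and gangliosides, differed by 0.24 ± 0.11 (limma adjusted p = 0.446). St3gal3 and St3gal4, which cap lactosamine chains, differed by 0.25 ± 0.09 and 0.13 ± 0.09 (adjusted p = 0.356 and 0.63). These values have the opposite sign to those of St3gal1 and St3gal5. St3gal6 was dim in both groups. Over all 21 sialyltransferase probe sets, 3 rose, 2 fell and 16 did not pass, with a median difference of 0.04.

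Among the 10 fucosyltransferase probe sets 1 fell and 0 rose. Fut7 encodes the α1,3 fucosyltransferase that completes sialyl Lewis x, the selectin ligand of leukocytes. Its probe set (17367999) read 7.86 and 7.77 with DMSO and 6.27 and 6.59 with retinoic acid. The retinoic acid mean, 6.43, was next to the dim level, so no fold is given. The difference of the measured values was -1.38 ± 0.13 (log2, SE; limma adjusted p = 0.0196). Fut4, the other α1,3 fucosyltransferase of myeloid cells, differed in the opposite direction, 0.40 ± 0.12, and did not pass (adjusted p = 0.24). Its transcribed pseudogene Fut4-ps1, whose probes could share sequence with it, differed by -0.01 ± 0.13.

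Fut10 read 6.07 and 6.03 with DMSO, under the dim level, and 6.50 and 6.72 with retinoic acid (0.56 ± 0.10, limma adjusted p = 0.0988). Fut8, which adds the core fucose of N-glycans, differed by 0.30 ± 0.08 (adjusted p = 0.192). The probe sets of Fut11 disagreed. One (17297495) read 7.61 and 8.28 with DMSO and 7.28 and 6.94 with retinoic acid (-0.84 ± 0.26, adjusted p = 0.267), and the other one (17297490) differed by -0.03 ± 0.08. Fut1, Fut2 and Fut9 were dim in both groups.

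**Figure D3:**
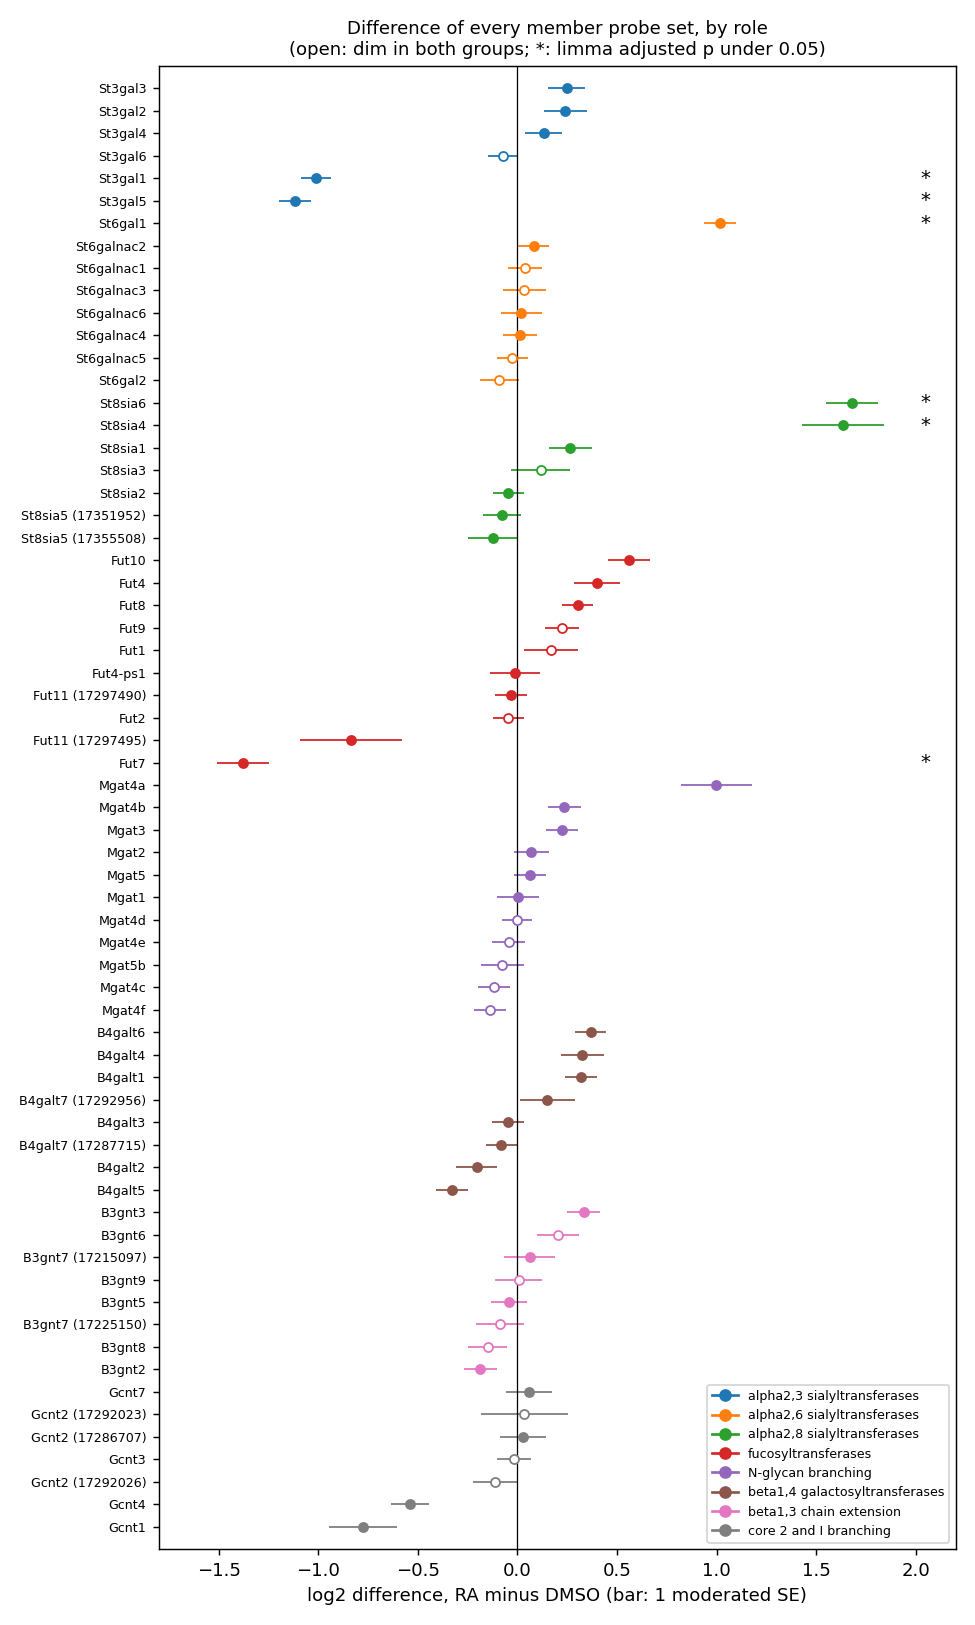
Log2 difference, retinoic acid (RA) minus DMSO (x axis), of all 65 member probe sets, grouped and coloured by role (y axis), with bars of 1 moderated SE. Open circles are dim in both groups (21 probe sets) and asterisks mark the 6 with an adjusted p under 0.05. The called members lie in the sialyltransferases and at Fut7, and values range from -1.38 to 1.68.

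None of the 11 N-glycan branching probe sets passed (limma; 3 higher and 0 lower at an unadjusted p under 0.05). Mgat4a, which starts a β1,4 branch on the first arm of the N-glycan core, read 8.70 and 8.35 with DMSO and 9.71 and 9.34 with retinoic acid. The groups did not overlap, and the difference of 1.00 ± 0.18 missed the threshold (adjusted p = 0.0906). Mgat4b, which makes the same branch, differed by 0.23 ± 0.08 and Mgat3, which adds the bisecting residue, by 0.23 ± 0.08 (adjusted p = 0.332 and 0.337). Mgat1, Mgat2 and Mgat5, which act in turn to open the first, second and β1,6 branches, differed by 0.00 ± 0.11, 0.07 ± 0.09 and 0.06 ± 0.08. The other 5 (Mgat4c, Mgat4d, Mgat4e, Mgat4f and Mgat5b) were dim in both groups.

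None of the 8 probe sets of β1,4 galactosyltransferases passed (limma; 3 higher and 1 lower at an unadjusted p under 0.05), and differences ran from -0.33 to 0.37. B4galt6 and B4galt5, which both make lactosylceramide, the substrate of St3gal5, had opposite signs: 0.37 ± 0.08 (adjusted p = 0.136) and -0.33 ± 0.08 (adjusted p = 0.183). B4galt1, which makes most lactosamine on N-glycans, differed by 0.32 ± 0.08 (adjusted p = 0.176), from 10.84 and 10.77 with DMSO to 11.11 and 11.14 with retinoic acid. The groups of each of these 3 did not overlap. The same held for 87.5% of the 8 probe sets and for 47.6% of all probe sets with 1 symbol.

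None of the 8 chain extension probe sets of the B3gnt family passed (limma; 1 higher and 0 lower at an unadjusted p under 0.05). That 1 was B3gnt3, which extends core 1 O-glycans, at 0.33 ± 0.08 (adjusted p = 0.185). B3gnt2, the main poly-lactosamine enzyme, differed by -0.19 ± 0.08 (adjusted p = 0.441). B3gnt5, which starts the lacto-series glycolipids, differed by -0.04 ± 0.09, and 4 of the 8 were dim in both groups.

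None of the 7 Gcnt probe sets passed (limma; 0 higher and 2 lower at an unadjusted p under 0.05). Gcnt1 makes the core 2 branch of O-glycans, on which sialyl Lewis x of selectin ligands is built, and competes with St3gal1 for core 1. It read 9.01 and 8.53 with DMSO and 8.02 and 7.98 with retinoic acid (-0.77 ± 0.17, adjusted p = 0.142). Gcnt4, a related core 2 enzyme, read 7.99 and 7.82 with DMSO and 7.38 and 7.36 with retinoic acid (-0.54 ± 0.09, adjusted p = 0.0858). In both genes each retinoic acid array was below each DMSO array. The groups did not overlap in 28.6% of the 7 probe sets, beside 47.6% of all with 1 symbol. The 3 probe sets of Gcnt2, the I-branching enzyme, differed by 0.03, 0.04 and -0.11.

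Over all members the groups did not overlap in 38 of 65 probe sets, 21 higher and 17 lower with retinoic acid. The same held for 20.7% (higher) and 23.3% (lower) of all tested probe sets, and 58.5% of the members stands beside the 47.6% given above. Separation of 2 arrays from 2 is thus common on these arrays.

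Genes that feed or carry these glycans were taken from lists chosen with earlier results of these data known. The counts below therefore do not test the lists. Each gene was represented by its brightest probe set, and 3.07% of all genes taken this way were called. Of 5 polysialic acid carriers 2 fell, 0 rose and 3 did not pass. Nrp2, a neuropilin that bears polysialic acid on dendritic cells, read 11.76 and 11.87 with DMSO and 10.02 and 9.92 with retinoic acid, 3.60-fold lower (-1.85 ± 0.09, limma adjusted p = 0.00492). Ccr7, the lymph node homing receptor and another carrier, read 8.09 and 8.15 with DMSO and 7.25 and 7.27 with retinoic acid, 1.81-fold lower (-0.86 ± 0.08, adjusted p = 0.0176). Ncam1, the classical neural carrier, differed by -0.29 ± 0.07 (adjusted p = 0.19), and Cadm1 and Scn4b were dim in both groups.

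In the list of O-GalNAc initiation and core 1, 1 of 18 genes fell, 0 rose and 17 did not pass (median difference 0.07). Galnt3, one of the enzymes that place the first GalNAc on proteins, read 10.06 and 9.87 with DMSO and 8.59 and 8.50 with retinoic acid, 2.68-fold lower (-1.42 ± 0.10, limma adjusted p = 0.0103). Galnt2 differed by 0.51 ± 0.08 (adjusted p = 0.0761), C1galt1, which makes core 1, by -0.16 ± 0.08, and its chaperone C1galt1c1 by 0.32 ± 0.08 (adjusted p = 0.494 and 0.18).

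Of 27 measured genes of sialic acid and nucleotide sugar supply 1 rose, 0 fell and 26 did not pass (median 0.02). That gene was Npl, the lyase that breaks down free sialic acid, at 7.95 and 8.05 with DMSO and 9.22 and 8.88 with retinoic acid (1.05 ± 0.14, 2.08-fold, limma adjusted p = 0.0427). The enzymes on the way to CMP-sialic acid did not pass: Gne by 0.28 ± 0.09, Nans by -0.10 ± 0.09, Nanp by 0.58 ± 0.38 with overlapping groups and Cmas by 0.16 ± 0.09, nor did its Golgi carrier Slc35a1 (0.26 ± 0.12).

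Of 24 other capping and chain enzymes B4galnt1 alone passed, with the median at 0.02. It makes GM2 and GD2 from GM3 and GD3, the step after St3gal5 and St8sia1. It read 10.74 and 10.60 with DMSO and 11.32 and 11.44 with retinoic acid (0.71 ± 0.10, 1.63-fold, limma adjusted p = 0.0453), and lost the call under quantile normalization (adjusted p = 0.053). Ugcg, which makes the glucosylceramide from which this chain starts, differed by -0.19 ± 0.09 (adjusted p = 0.456).

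None of 10 selectins and selectin ligand carriers passed (limma; 3 higher and 4 lower at an unadjusted p under 0.05). Selplg, which encodes PSGL-1, the main protein bearing Fut7 products on leukocytes, differed by -0.48 ± 0.08, Cd44 by -0.53 ± 0.08 and Spn by -0.52 ± 0.09, with adjusted p from 0.0611 to 0.0788. Other genes of the list differed in the opposite direction: the lysosomal membrane proteins Lamp1 by 0.48 ± 0.08 and Lamp2 by 0.37 ± 0.09, and P-selectin, Selp, by 0.67 ± 0.19 (adjusted p = 0.071, 0.157 and 0.239), the last below the dim level with DMSO. None of 9 sialidase and fucosidase genes passed either (limma; 3 higher and 0 lower at an unadjusted p under 0.05), with Neu1, the lysosomal sialidase, at 0.54 ± 0.08 (adjusted p = 0.0623). The 8 N-glycan mannosidases and glucosidases had 0 calls (limma; 1 higher and 1 lower at an unadjusted p under 0.05). Like the members, Nrp2, Ccr7, Galnt3, Npl and B4galnt1 lost the call whichever of the 4 arrays was left out, with adjusted p from 0.0569 (Nrp2) to 0.271 (B4galnt1) and no change of sign. They also lost it with the constant probe sets kept (limma adjusted p = 0.0625, 0.0644, 0.0789, 0.162 and 0.128).

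**Figure D4:**
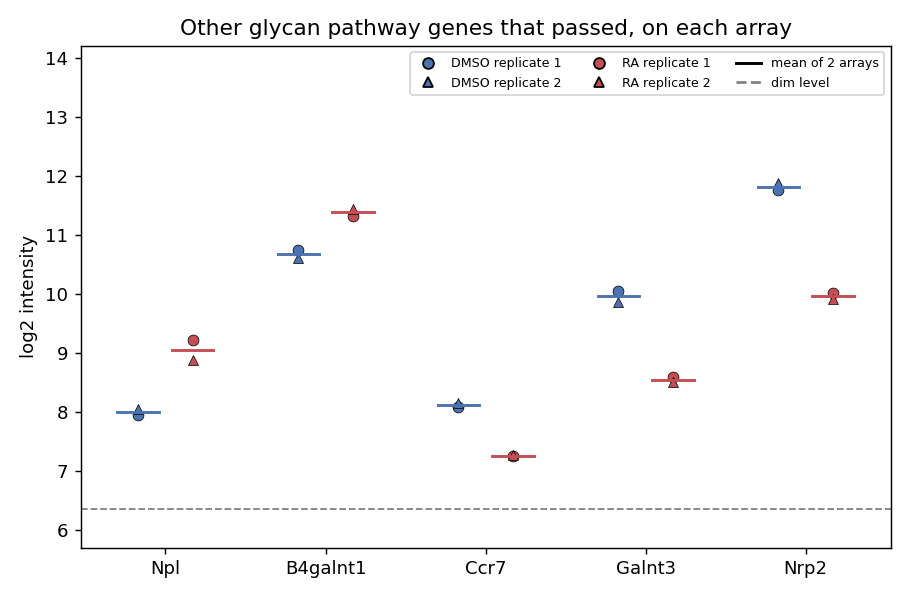
Log2 intensity (y axis) on each array of the 5 genes of the glycan pathway lists that passed (x axis). Colours, symbols, mean lines and the dashed dim level of 6.35 are as in the plot of the 11 members. Npl and B4galnt1 are higher with retinoic acid, and Ccr7, Galnt3 and Nrp2 lower, with no overlap between groups.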

How the data were processed

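Each deposited value is the intensity of 1 probe set on 1 array, on a linear scale, made by the authors with Affymetrix Expression Console and RMA per the submitters' processing notes. RMA corrects background, equalises arrays and summarises probes, and understates differences of dim genes. Versions and genome build are not given in the sources used here. Array medians were 80.0 to 81.8, and the number of arrays limits the precision.

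Intensities were transformed to log2 without further normalization. limma 3.58.1 (R 4.3.3; lmFit, eBayes) compared retinoic acid with DMSO on 4 arrays, two-sided, without covariates, with Benjamini-Hochberg adjustment over 39721 probe sets and a threshold of 0.05. The 1624 probe sets fixed at 4.78 on all arrays, none annotated with 1 gene, were left out. Names came from the platform annotation, and all 65 member identifiers were found in RefSeq (GRCm38.p6). Named in full were the called members, those differing by at least 0.5, and St8sia4, St8sia6 and St3gal1; of each list, the called genes and some defining ones. The members and lists were chosen with earlier results of these data known. Deviations from group means of same-numbered arrays correlated at -0.25, so the numbers were not taken to pair the arrays. Alternatives were constant probe sets kept, filters, another normalization, an intensity trend, an added 16, a replicate block and each array left out.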

Additional observations from a re-analysis of the deposited data

How the results depend on the processing

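Over all probe sets 359 were higher and 471 lower, and 3 and 3 among the members. Keeping the constant probe sets left 0 and 0, and 0 and 0 members (limma; 6260 probe sets and 21 members at an unadjusted p under 0.05), with limma's prior degrees of freedom at 0.898 in place of 2.76. Testing only probe sets with 1 symbol gave 757 and 879, and 6 and 5 members: the 6 and Mgat4a, Gcnt4, Fut10, Gcnt1 and B4galt6. Testing only probe sets whose mean over the 4 arrays lay above the dim level gave 554 and 681. Of the 43 members tested there 8 passed, the 6 with Gcnt4 and Mgat4a. With the replicate number as a block there were 73 and 88, and 1 and 0 members (St8sia4; the other 5 had limma adjusted p of 0.0672 to 0.0826). Of the pathway genes Nrp2 and Galnt3 passed with this block, and Ccr7, Npl and B4galnt1 did not (0.0911, 0.134 and 0.171). With the numbers crossed, an alternative chosen after seeing the data, there were 191 and 260, and 2 and 3 members. Leaving out 1 array gave 12 to 30 higher and 13 to 25 lower probe sets, and 0 members. A fit without 1 array has less residual freedom. The cause of the change in calls was not tested for any setting. The other settings (median centring, quantile normalization, an intensity trend, an added 16 and 1 probe set per gene) called 3 and 3 members. No named difference changed sign in any setting run. The arrays carry no detection calls, so 21 members below the dim level in both groups are not shown to be unresponsive.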

Other observations

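The protein-coding genes on either side of the 6 called members, in the order of the RefSeq table (GRCm38.p6) and with a probe set of their own, were looked at after the member values were seen. Of these 12 neighbours 2 passed, both lower with retinoic acid. Of all probe sets with 1 symbol, 2.96% were called in either direction. The share was 5.02% of those above the dim level in at least 1 group. Ndrg1, next to St3gal1, fell by 1.06 on the log2 scale (limma adjusted p = 0.013), and Abca2, a lipid transporter gene next to Fut7, fell by 0.67 (adjusted p = 0.0328). The other neighbour of each, Zfat and Npdc1, differed by -0.02 and -0.08 and did not pass. Beside St3gal5, which fell too, Polr1a and Atoh8 differed by 0.05 and 0.14 and did not pass. The neighbours of the members that rose did not pass: Vim and Hacd1 beside St8sia6 differed by -0.30 and 0.20, Fam174a and Slco4c1 beside St8sia4 by 0.26 and 0.04, and Adipoq and Rtp1 beside St6gal1 by -0.04 and 0.18.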
